A study of Sus scrofa with 12 samples.

Results

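The insulin receptor INSR, the insulin receptor substrate IRS2, and FBXO32, GABARAPL1 and RETREG1 are 5 genes that link the insulin signal to protein breakdown and autophagy. They were taken as the rows of the expression table that carry the pig gene identifiers given for these symbols in the gene lists of the study, 5 of 31903 identifiers in all. All 5 come from a list of genes that differed between muscles with a high and a low content of intramuscular fat, drawn up from these same libraries, so their values in that comparison are a description and no independent evidence. RNA-Seq libraries were made from total RNA of Dingyuan pigs, a local Chinese breed, labelled as 300 days old.

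The 12 libraries fell into 4 groups of 3 replicates. Back subcutaneous fat came from pigs with high (HBF) or low (LBF) backfat, and longissimus dorsi (LD) muscle from pigs with high (HIMF) or low (LIMF) intramuscular fat content. All animals were unmated sows kept under the same feeding conditions, the labels name no treatment, and the animals were chosen from a herd for very high or very low live backfat. Intramuscular fat was measured after slaughter, and the muscle samples were divided by it. Each fat library shares the letter and number of its deposited code with 1 muscle library, but no source used here says that such libraries came from the same pig. The trait summaries of the study differ between LBF and LIMF and between HBF and HIMF, so a fat group and its muscle group did not consist wholly of the same pigs, and the libraries were fitted as separate. Values are FPKM, the fragments of a gene divided by its transcript length and the mapped total, which allow levels to be compared between genes per length. The summed FPKM per library lay between 420982 and 517796, and the read depth behind a value cannot be read from FPKM. In muscle the sums did not overlap, at 430581 to 450875 in LIMF and 496972 to 517796 in HIMF. In fat they overlapped, at 420982 to 514247 in LBF and 469603 to 503498 in HBF.

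Insulin binds INSR, a receptor tyrosine kinase, which phosphorylates the adaptors IRS1 and IRS2 and so activates PI3K and AKT. AKT phosphorylates FoxO transcription factors and keeps them out of the nucleus. When insulin is low, FoxO factors enter the nucleus and in muscle raise FBXO32 (atrogin-1), the muscle ubiquitin ligase used as a marker of atrophy, and autophagy genes such as GABARAPL1, one of the ATG8 proteins that are coupled to the autophagosome membrane. IRS2 and INSR are themselves known FoxO targets. RETREG1 (FAM134B) is a reticulon-like receptor in the membrane of the endoplasmic reticulum (ER) that binds ATG8 proteins and leads ER sheets into autophagy.

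On the Sscrofa11.1 assembly INSR (ENSSSCG00000013566) lies on chromosome 2 from 71797209 to 71939923, and IRS2 (ENSSSCG00000034763) on chromosome 11 from 76626158 to 76654639. FBXO32 (ENSSSCG00000005981) lies on chromosome 4 from 15895875 to 15925929, GABARAPL1 (ENSSSCG00000000645) on chromosome 5 from 61758127 to 61767427, and RETREG1 (ENSSSCG00000016792) on chromosome 16 from 5726493 to 5879461. Each gene is therefore on a chromosome of its own. For the receptor and the ER-phagy receptor the study ran RT-qPCR on the same samples, and it reported the same trends as in its RNA-Seq. The primers are shown because they define the stretch of these transcripts that this second assay read. They are written 5′ to 3′ in lower case, with no base marked.
INSR forward: gtgttgtgattggaagcatttat
INSR reverse: catcgctggcactgaggta
RETREG1 forward: gccttttccacttgctgcgt
RETREG1 reverse: attctgcgatacagtggc
The INSR primers are 23 and 19 bases long, with a GC content of 34.8% and 57.9%, and the RETREG1 primers are 20 and 18 bases long, with a GC content of 55.0% and 50%.

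The tissues were checked against their markers first, as summed FPKM over the matched genes of each list. The 10 matched adipocyte markers summed to between 8807 and 14697 in the fat libraries and to between 183 and 443 in the muscle libraries. The 7 matched skeletal muscle markers summed to between 10530 and 30437 in the muscle. However, 2 defining muscle genes were listed at 0 in muscle libraries: ACTA1 in LIMF 1, 2 and 3 and HIMF 1, and CKM in LIMF 2 and 3. In the fat, LBF 3 held more muscle transcripts than the others: its 4 matched fast fibre markers summed to 119, against 0.300 to 0.844 in the other 5 fat libraries.

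**Figure D1:**
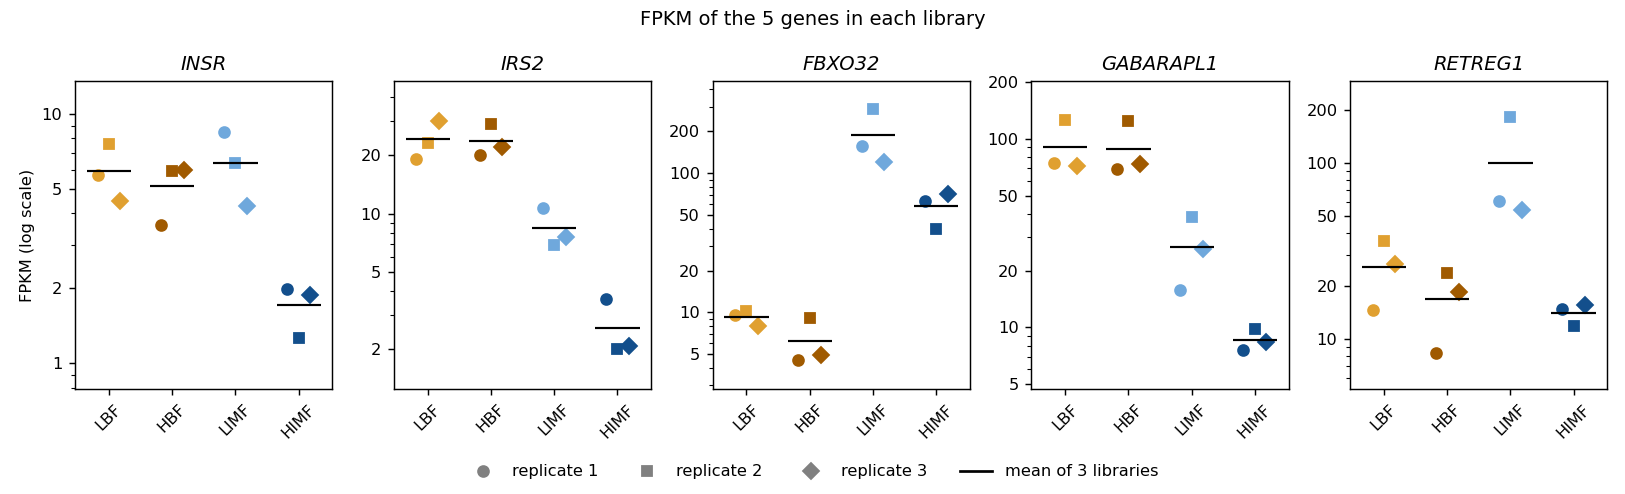
FPKM of the 5 genes in each of the 12 libraries by group, with FPKM on a log axis, a point for each library (its shape gives the replicate) and a black line for the mean of the 3 libraries. The HIMF libraries lie below all LIMF libraries for each gene, while the HBF and LBF libraries overlap for each gene.

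The order of the 5 genes by level differed between the tissues. In every muscle library the order from high to low FPKM was FBXO32, RETREG1, GABARAPL1, IRS2 and INSR. In all 6 fat libraries GABARAPL1 came first instead, IRS2 lay above RETREG1 in 5, and FBXO32 lay above INSR in 5. Between the group means, neighbours whose libraries overlapped were LIMF, LBF and HBF for INSR, LBF and HBF for the other 4 genes, and HBF and HIMF for RETREG1.

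The comparison of HIMF with LIMF asks how LD muscle with more intramuscular fat differs from LD muscle with less. INSR was at 8.51, 6.40 and 4.27 FPKM in LIMF 1 to 3, against 1.99, 1.26 and 1.88 in HIMF 1 to 3, so that the lowest LIMF library was above the highest HIMF library. The LIMF and HIMF means were 6.39 ± 2.12 and 1.71 ± 0.389 FPKM (SD, n = 3 each). Within LIMF the level covered a wide range, with LIMF 1 at the top and LIMF 3 at the bottom, and the HIMF libraries lay close together.

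IRS2, the adaptor downstream of the receptor, was at 10.8, 6.90 and 7.61 FPKM in the LIMF libraries, against 3.64, 2.0 and 2.09 in HIMF. The groups did not overlap, and replicate 1 was the highest library of both. The means were 8.42 ± 2.06 and 2.57 ± 0.922 FPKM (SD, n = 3 each).

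FBXO32 was at 157, 287 and 120 FPKM in the LIMF libraries, against 63.2, 39.8 and 71.4 in HIMF. It was the most abundant of the 5 genes in muscle in both groups. LIMF 2 stood well above the other LIMF libraries, and the means were 188 ± 88.0 and 58.1 ± 16.4 FPKM (SD, n = 3 each).

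GABARAPL1 was at 15.8, 38.6 and 26.0 FPKM in the LIMF libraries, against 7.55, 9.86 and 8.38 in HIMF. The HIMF libraries lay close together, and LIMF 2 was again the highest. Its means were 26.8 ± 11.4 and 8.60 ± 1.17 FPKM (SD, n = 3 each).

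RETREG1 was at 60.9, 183 and 54.2 FPKM in the LIMF libraries, against 14.8, 11.8 and 15.6 in HIMF. LIMF 2 stood far above the other LIMF libraries, and even the lowest LIMF library was well above all 3 HIMF libraries. The means were 99.3 ± 72.4 and 14.1 ± 2.03 FPKM (SD, n = 3 each).

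On the log2(FPKM + 0.1) scale, the difference of HIMF from LIMF was -1.81 (standard error 0.31) for INSR, -1.70 (0.30) for IRS2 and -1.64 (0.37) for FBXO32. It was -1.55 (0.32) for GABARAPL1 and -2.59 (0.44) for RETREG1. As folds, INSR was 3.52-fold, IRS2 3.25-fold, FBXO32 3.11-fold, GABARAPL1 2.92-fold and RETREG1 6.02-fold lower in HIMF. Among the 14292 genes tested in muscle, ordered from the most negative difference, RETREG1 stood at rank 19, INSR at 78, IRS2 at 94, FBXO32 at 105 and GABARAPL1 at 124. Adjusted over all these genes, limma's p was 0.362 for INSR, IRS2 and RETREG1, 0.475 for GABARAPL1 and 0.527 for FBXO32, so none of the 5 passed the limits set for a call, which were an adjusted p under 0.01 and a log2 fold change of 1 or more in size. Neither did any other gene: limma called 0 of 14292 genes (0%), while 1004 (7.02%) had an unadjusted p under 0.05. Groups that did not overlap were found for 12.7% of all genes tested, with HIMF lower for 4.74%. Nothing is read from the 5 members against these shares, since this comparison listed them. In a bulk sample, fewer cells of a type and less RNA per cell cannot be told apart.

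When 1 library was left out, the difference ranged from -2.91 (without LIMF 3) to -2.03 (without LIMF 2) for RETREG1, from -1.91 (without LIMF 3) to -1.28 (without LIMF 2) for FBXO32, and from -1.88 (without LIMF 1) to -1.24 (without LIMF 2) for GABARAPL1. The values of INSR and IRS2 stayed between -2.07 and -1.51 whichever library was left out.

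**Figure D2:**
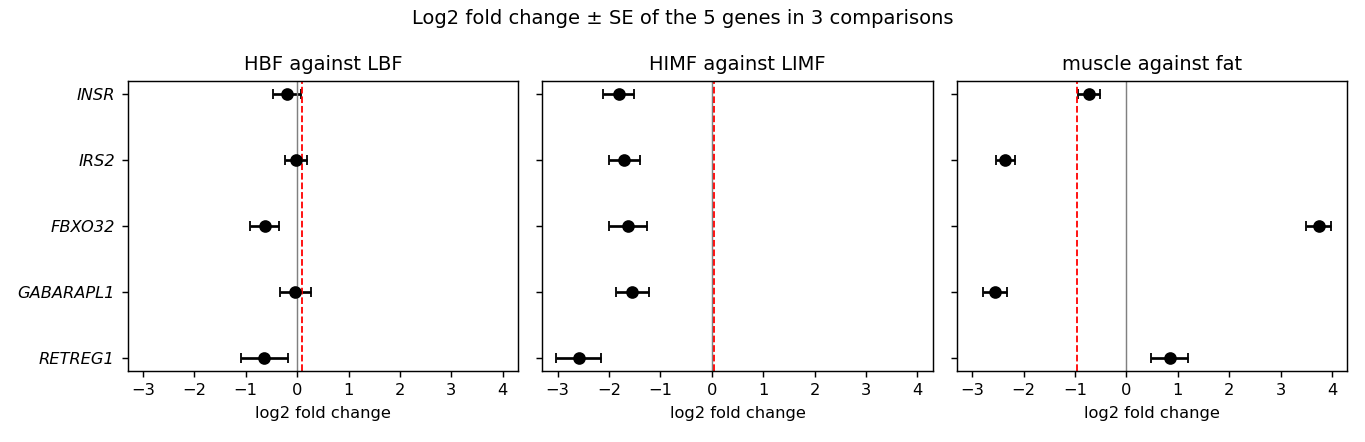
Log2 fold change of the 5 genes, with bars of 1 standard error from limma, for HBF against LBF (6 libraries), HIMF against LIMF (6 libraries) and muscle against fat (12 libraries), with the median of all genes as a dashed line. The muscle values lie between -2.59 and -1.55, the fat values between -0.64 and -0.021, and the tissue values run from -2.55 for GABARAPL1 to 3.74 for FBXO32.

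Marker genes of the cell types that LD muscle can hold were measured beside these values. The summed adipocyte markers (10 of 11 listed) lay between 275 and 443 FPKM in the LIMF libraries, and 183 and 315 were the limits of HIMF. PNPLA2 and LPL were at 217 and 136 FPKM in LIMF 3, the library with the sum of 443. Of the 10 markers, 4 were higher and 1 was lower in HIMF at an unadjusted p under 0.05, and none passed the limits. ADIPOQ, the adipocyte hormone adiponectin, was at 4.27, 6.46 and 1.31 FPKM in the LIMF libraries, against 21.8, 8.36 and 11.2 in HIMF, and PLIN1, which coats lipid droplets in adipocytes, was at 0.975, 1.70 and 0.343 against 4.90, 3.67 and 2.71. LEP and CIDEC had log2 fold changes of 1.71 and 1.26, and PPARG and FABP4 had 0.32 and 0.21. LEP was at 0.099, 0.048 and 0.031 FPKM in the LIMF libraries, against 0.453, 0.44 and 0.348 in HIMF. The other 4 adipocyte markers had the opposite sign. LPL, the lipase that takes up fatty acids from lipoproteins, had a log2 fold change of -1.30 and no overlap. It was at 85.1, 76.3 and 136 FPKM in the LIMF libraries, against 40.4, 21.6 and 67.0 in HIMF. The study gives LPL a positive log2 fold change in this comparison. The lipases LIPE and PNPLA2 had -0.88 and -0.50, and PLIN4 had -0.20. The 6 matched slow fibre markers summed to between 4327 and 21289 FPKM in LIMF and between 2801 and 7803 in HIMF. All 6 had negative fold changes with a median of -0.87 on the log2 scale, and 0 had an unadjusted p under 0.05. LIMF 3 stood apart, with a sum of 21289 FPKM against 9343 and 4327 in LIMF 1 and 2. Fold changes of these markers without LIMF 3 were not computed. The 4 matched fast fibre markers summed to between 9502 and 12873 FPKM in LIMF and between 11592 and 15907 in HIMF, with a median log2 fold change of 0.34 and 0 at an unadjusted p under 0.05. The 7 matched skeletal muscle markers summed to between 10530 and 21287 FPKM in LIMF and between 23118 and 30437 in HIMF, and without ACTA1 and CKM, the genes listed at 0 above, the other 5 overlapped, at 10530 to 12651 and 10949 to 13830. The 7 matched immune and endothelial markers summed to between 26.3 and 43.4 FPKM in LIMF and between 22.3 and 43.0 in HIMF. The part of the cell types in the lower values of the 5 genes was not tested.

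Each member was set within the same library against genes of its family or, for FBXO32, a ligase of another family with a like role, which removes any scaling between libraries. IRS2 was at a ratio of 0.508 to 1.32 to IRS1, the other main adaptor in muscle, in LIMF and of 0.0488 to 0.144 in HIMF, 7.90-fold lower. IRS1 itself had higher values in HIMF, at 8.13, 13.0 and 15.0 FPKM in the LIMF libraries, against 25.3, 41.0 and 20.1 in HIMF. On the log2 scale the difference was 1.23 (standard error 0.33), and with an adjusted p of 0.544 in limma it did not pass.

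INSR was compared with IGF1R, the receptor for insulin-like growth factor. The ratio of INSR to IGF1R was 3.16 to 4.72 in LIMF and 2.15 to 2.98 in HIMF, 1.67-fold lower. This is the smallest of the 8 ratio differences computed, and IGF1R was itself lower in HIMF, at 1.80, 1.45 and 1.35 FPKM in the LIMF libraries, against 0.899, 0.589 and 0.631 in HIMF. On the log2 scale the difference was -1.03 (standard error 0.27), and with an adjusted p of 0.544 in limma it did not pass either. With a pseudocount of 1 in place of 0.1 the difference was -0.57.

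FBXO32 was compared with TRIM63 (MuRF1), the other muscle ubiquitin ligase that FoxO factors are known to raise. TRIM63 was at 317, 443 and 151 FPKM in the LIMF libraries, against 154, 206 and 252 in HIMF, so its groups overlapped where those of FBXO32 did not. The ratio of FBXO32 to TRIM63 was 0.493 to 0.795 in LIMF and 0.193 to 0.411 in HIMF, 2.24-fold lower.

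GABARAPL1 had a far lower level in muscle than its relatives of the ATG8 family. Its ratio to GABARAP was 0.0539 to 0.112 in LIMF and 0.0215 to 0.0294 in HIMF, 3.21-fold lower, and that to GABARAPL2 was 0.119 to 0.391 and 0.0545 to 0.0572. Against MAP1LC3B the difference was smaller, at 1.85-fold lower in HIMF. The ratios were 0.158, 0.381 and 0.150 in LIMF 1 to 3, with LIMF 2 apart, and 0.0873 to 0.132 in HIMF. GABARAP was at 293, 344 and 306 FPKM in the LIMF libraries, against 257, 459 and 342 in HIMF, and its groups overlapped, as did those of GABARAPL2. These genes are close in sequence, and how the counting shared reads between relatives is not given in the sources used here.

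RETREG1 was compared with RETREG2 and RETREG3, the other members of its family. Its ratio to RETREG2 was 2.88 to 9.50 in LIMF and 0.585 to 0.891 in HIMF, 6.21-fold lower, so that RETREG1 was the more abundant gene in each LIMF library and the less abundant in each HIMF library. Its ratio to RETREG3 was 10.7 to 34.3 in LIMF and 1.94 to 3.32 in HIMF, 6.33-fold lower. RETREG2 was at 21.2, 19.3 and 13.6 FPKM in the LIMF libraries, against 17.0, 20.1 and 17.5 in HIMF, with overlap, and RETREG3 overlapped too. The ratios did not overlap between HIMF and LIMF, and they overlapped between HBF and LBF. Every gene set against a relative was listed from HIMF against LIMF, which favoured a gap there in advance. Ratios of other genes were not computed, so nothing is read from this difference between the tissues.

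**Figure D3:**
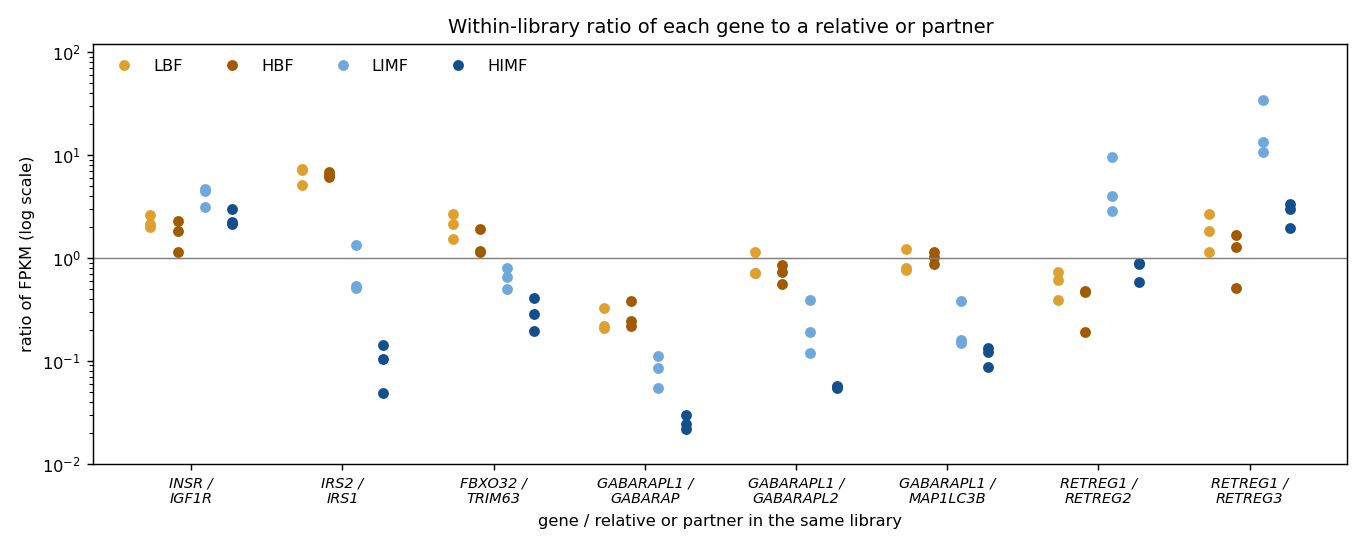
Ratio of each of the 5 genes to a relative or partner in the same library, on a log axis, by group (3 libraries each). The ratio of IRS2 to IRS1 is at least 0.508 in each LIMF library and at most 0.144 in each HIMF library. The 5 genes were listed from HIMF against LIMF, so the gaps between these groups are a description.

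The other genes of the same pathways were counted in HIMF against LIMF, without the 5 members, against 4.51% of all genes higher and 2.52% lower at an unadjusted p under 0.05. None of the listed genes passed the limits. Of 31 other genes of the insulin signal tested, 1 was higher and 1 lower at an unadjusted p under 0.05, namely IRS1 and IGF1R, and the median log2 fold change was -0.22 against 0.038 over all genes. INPPL1 (SHIP2), a lipid phosphatase that opposes PI3K, had a log2 fold change of 0.75, or 0.39 without LIMF 2, and did not overlap.

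Of 24 other FoxO factors and linked genes tested in muscle, 0 were higher and 1 was lower at an unadjusted p under 0.05, with a median log2 fold change of -0.16. The FoxO factors themselves overlapped between the groups: FOXO1 was at 15.3, 23.8 and 6.39 FPKM in the LIMF libraries, against 6.19, 16.8 and 13.0 in HIMF, and FOXO3 was at 14.2, 27.8 and 7.97 against 8.15, 10.4 and 15.0. FOXO4 was at 20.9, 15.3 and 34.5 FPKM in the LIMF libraries, against 21.3, 28.6 and 21.6 in HIMF. KLF15, a transcription factor of muscle metabolism, was at 21.0, 35.2 and 17.0 FPKM in the LIMF libraries, against 13.7, 11.2 and 16.0 in HIMF, with a log2 fold change of -0.78, or -0.48 without LIMF 2. PPARGC1A, a coactivator of mitochondrial genes, had a log2 fold change of -1.32 that was carried by LIMF 1. Its LIMF libraries measured 32.0, 7.06 and 6.61 FPKM, and the log2 fold change was -0.59 without LIMF 1. FOXO6, at 1.06, 0.365 and 1.16 FPKM in LIMF against 1.78, 3.47 and 0.911 in HIMF, had a log2 fold change of 1.11, or 0.65 without either LIMF 2 or HIMF 2 and 0.66 with a pseudocount of 1, and overlapped.

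Of 37 other ATG8 and core autophagy genes, 1 was higher and 2 were lower in HIMF at an unadjusted p under 0.05, and the median log2 fold change was -0.023. WIPI1, which binds the phosphoinositide of the forming autophagosome, had -1.09, MAP1LC3B had -0.67, or -0.40 without LIMF 3, and ATG4A, a protease of ATG8 proteins, had 0.40. Of the 9 other ER-phagy genes tested, 0 had an unadjusted p under 0.05 in limma in either direction, 0 were free of overlap and the median was 0.065. The log2 fold changes of the 9 genes ran from -0.35 for TEX264 to 0.29 for SEC62, with CALCOCO1 at -0.19. RETREG1, a receptor of the same process, had -2.59, but it was listed from this comparison and the 9 genes were not. Leaving out 1 library moved TEX264 between -0.57 and 0.039 (without LIMF 1 and LIMF 2), SEC62 between 0.14 and 0.59 (without LIMF 3 and LIMF 2) and CALCOCO1 between -0.28 and -0.10 (without LIMF 2 and LIMF 1).

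**Figure D4:**
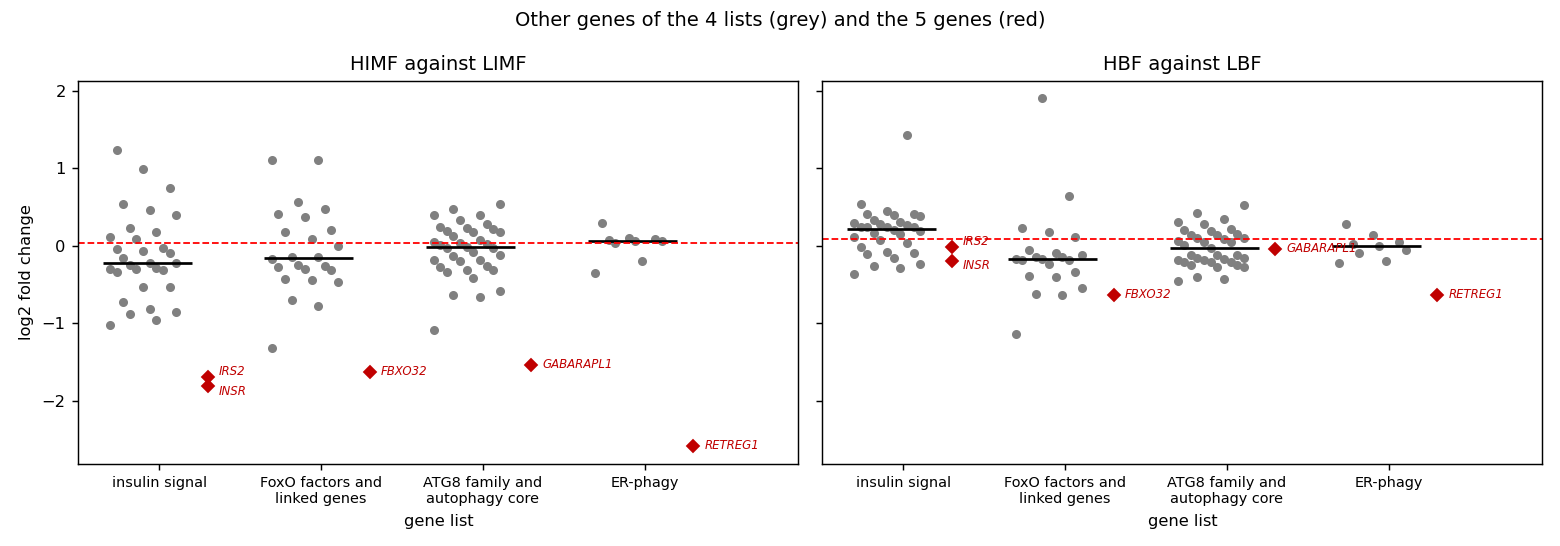
Log2 fold change of the other genes of 4 pathway lists (grey points, with the median of each list as a black line) and of the 5 genes (red diamonds) in HIMF against LIMF and HBF against LBF; the dashed line is the median over all genes tested. In muscle the 5 genes lie below every other gene of their lists, from -2.59 to -1.55, and in fat they lie between -0.64 and -0.021. The 5 genes were listed from the muscle comparison, so their place there is a description and no independent evidence.

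The comparison of HBF with LBF puts the same question to subcutaneous fat, and it was not used to list the genes. INSR was at 5.70, 7.60 and 4.48 FPKM in the LBF libraries, against 3.60, 5.94 and 5.98 in HBF. IRS2 was at 19.2, 23.2 and 30.3 in LBF, against 20.2, 28.9 and 22.1 in HBF. The libraries of both genes were mixed between the groups, with means of 5.93 ± 1.57 and 5.17 ± 1.36 FPKM for INSR and of 24.2 ± 5.61 and 23.7 ± 4.58 FPKM for IRS2 in LBF and HBF (SD, n = 3 each).

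FBXO32, which is low in fat, was at 9.53, 10.2 and 8.0 FPKM in the LBF libraries, against 4.52, 9.15 and 4.93 in HBF, with HBF 2 inside the range of LBF. GABARAPL1 was at 74.6, 126 and 71.7 in LBF, against 69.0, 124 and 73.1 in HBF, with replicate 2 the highest of both groups. RETREG1 was at 14.5, 35.8 and 26.4 FPKM in the LBF libraries, against 8.27, 23.7 and 18.4 in HBF, with replicate 2 again the highest of both and replicate 1 the lowest of both.

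On the log2 scale the difference of HBF from LBF was -0.20 for INSR (95% interval -0.84 to 0.45) and -0.021 for IRS2 (-0.52 to 0.48). It was -0.038 for GABARAPL1 (-0.75 to 0.67), -0.63 for FBXO32 (-1.29 to 0.021) and -0.64 for RETREG1 (-1.72 to 0.44). The limma p adjusted over 16239 genes was 0.377 for FBXO32, 0.57 for RETREG1, 0.782 for INSR, 0.973 for GABARAPL1 and 0.979 for IRS2, so 0 of the 5 passed, as did 0 of all genes (0%). At an unadjusted p under 0.05 stood 13.6% of all genes and 0 of the 5. The exact permutation test over the 20 splits of 6 libraries, two-sided and with 0.10 as the smallest p it can give, gave 0.20 for FBXO32, 0.40 for RETREG1, 0.60 for GABARAPL1, 0.70 for INSR and 1.0 for IRS2. The intervals of FBXO32 and RETREG1 include a fall by 1 log2 unit, and those of INSR, IRS2 and GABARAPL1 do not in this fit. INSR had -0.32 (standard error 0.29) with quantile normalization and -0.38 (0.28) without LBF 3, and intervals were not computed for these settings. All 5 genes overlapped between HBF and LBF, where 6.46% of all genes were lower in HBF without overlap. Without LBF 3, the library with muscle transcripts, FBXO32 had -0.73. Leaving out other libraries moved FBXO32 to -0.45 (without HBF 1) and -0.95 (without HBF 2), and RETREG1 to -0.20 (without HBF 1) and -1.0 (without LBF 1). The share of higher genes among those at an unadjusted p under 0.05 was 68.9% in HBF as deposited and 48.6% after median-of-ratios scaling of the libraries.

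In the fat libraries 3 of 32 other genes of the insulin signal were higher in HBF and 0 lower at an unadjusted p under 0.05, against 9.36% and 4.22% of all genes, with a median log2 fold change of 0.22 against 0.089 over all genes. GRB2, an adaptor that links receptors to RAS, was at 25.3, 27.1 and 31.8 FPKM in the LBF libraries, against 39.8, 39.7 and 42.2 in HBF, and its log2 fold change was 0.53. GSK3A, a kinase that AKT inhibits, had 0.40. Of 22 FoxO factors and linked genes tested, 1 was higher and 3 were lower, with a median of -0.175. CTSL, a lysosomal protease, was at 13.7, 6.65 and 15.0 FPKM in the LBF libraries, against 60.4, 24.5 and 49.0 in HBF, with a log2 fold change of 1.90. SESN1, a stress-induced regulator of mTORC1, was at 107, 119 and 73.0 against 29.5, 57.3 and 51.4, with -1.14. FOXO3 was at 21.3, 30.3 and 19.2 FPKM in the LBF libraries, against 13.0, 17.9 and 14.3 in HBF, and its log2 fold change was -0.63 with no overlap. None of these genes passed the limits after adjustment.

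Of 37 ATG8 and core autophagy genes in fat, 0 were higher and 1 was lower at an unadjusted p under 0.05, with a median log2 fold change of -0.032. That gene was ATG7, the enzyme that activates ATG8 proteins, at 19.3, 16.7 and 17.9 FPKM in the LBF libraries, against 12.8, 13.2 and 13.3 in HBF, with a log2 fold change of -0.45, and WIPI1 had -0.40, or -0.26 without LBF 1. By limma's unadjusted p, 0 of the 9 ER-phagy genes were under 0.05, and the median was 0. ATL3 had 0.28, or 0.16 without LBF 2, and UFL1 had -0.20. Markers moved with the fat groups too: the 7 matched immune and endothelial markers summed to between 219 and 330 FPKM in LBF and between 331 and 463 in HBF, and 3 of the 7 were higher in HBF at an unadjusted p under 0.05. The summed adipocyte markers overlapped, at 8807 to 11673 in LBF and 9167 to 14697 in HBF, with 1 of 10 higher and 1 lower at an unadjusted p under 0.05. The part of the immune and endothelial markers in the fat values was not tested.

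Set side by side, the log2 fold change was -1.81 in muscle and -0.20 in fat for INSR, -1.70 and -0.021 for IRS2, -1.64 and -0.63 for FBXO32, -1.55 and -0.038 for GABARAPL1, and -2.59 and -0.64 for RETREG1. The difference between both comparisons, an interaction fitted in limma over all 12 libraries, was -1.62 for INSR, -1.68 for IRS2, -1.0 for FBXO32, -1.51 for GABARAPL1 and -1.95 for RETREG1. Its p adjusted over all genes was 0.303, 0.254, 0.520, 0.372 and 0.405 in that order, so a difference between the tissues in the high-low change passed for none of the 5 genes, nor for any of 15965 genes (0%; 10.2% at an unadjusted p under 0.05). This difference contains the muscle comparison from which the genes were listed and is no independent evidence either.

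The comparison of muscle with fat was also not used to list the genes. Over all 12 libraries, IRS2 and GABARAPL1 were lower in muscle and FBXO32 was higher, each past the limits. IRS2 lay between 2.0 and 10.8 FPKM in muscle and between 19.2 and 30.3 in fat, a log2 difference of -2.35 (standard error 0.19, limma adjusted p = 2.9e-07), which is 5.11-fold. GABARAPL1 lay between 7.55 and 38.6 FPKM in muscle and between 69.0 and 126 in fat, a log2 difference of -2.55 (standard error 0.24, limma adjusted p = 1.0e-06), 5.87-fold. FBXO32 lay between 39.8 and 287 FPKM in muscle and between 4.52 and 10.2 in fat, a log2 difference of 3.74 (standard error 0.25, limma adjusted p = 5.2e-08), 13.4-fold higher. The tissues did not overlap for any of these 3 genes, as for 10.4% of all genes with muscle higher and 49.3% with muscle lower.

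INSR and RETREG1 did not pass and overlapped between the tissues. INSR had a log2 difference of -0.72 (standard error 0.22, limma adjusted p = 0.0089), under the limit on the fold, and RETREG1 had 0.84 (standard error 0.35, limma adjusted p = 0.044). The values of all 5 genes depended on which groups entered, although the difference between the low and the high groups is the interaction that passed for none of them. Between the low groups and between the high groups, IRS2 had -1.51 and -3.19, GABARAPL1 had -1.80 and -3.31, and FBXO32 had 4.24 and 3.24, each past the limits. Between the low groups INSR had 0.085 and between the high groups -1.53, and RETREG1 had 1.81 between the low groups and -0.14 between the high groups. The counts of called genes stand against a background in which 9.29% of 15965 genes were called higher and 47.1% lower in muscle. The median of all genes lay at -0.97 on the log2 scale as deposited, and at -0.16 after median-of-ratios scaling and -0.065 after quantile normalization. With median-of-ratios scaling and quantile normalization, the difference was -1.32 and -1.70 for IRS2, -1.51 and -2.21 for GABARAPL1, and 4.78 and 4.29 for FBXO32, all still past the limits. With either scaling INSR changed sign, to 0.30 and 0.29, and RETREG1 passed as higher, with 1.88 and 1.28. The share of genes higher in muscle among those with an unadjusted p under 0.05 was 19.7% as deposited and 46.1% after median-of-ratios scaling.

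The relatives and partners of the members differed between the tissues as well. IRS1 was higher in muscle by 2.26 on the log2 scale while IRS2 was lower, and TRIM63 was higher by 5.71, more than FBXO32. IGF1R had -1.35, RETREG2 -1.27 and RETREG3 -1.46, all called lower as deposited and none after median-of-ratios scaling. Of the lists without the members, 4 genes of 31 of the insulin signal were called higher and 9 lower in muscle, 6 and 9 of 24 FoxO factors and linked genes, 6 and 11 of 37 ATG8 and core autophagy genes, and 0 and 6 of 9 ER-phagy genes. All 10 matched adipocyte markers and all 7 immune and endothelial markers were called lower in muscle, and 5 of 7 skeletal muscle, 6 of 6 slow fibre and 4 of 4 fast fibre markers were called higher.

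How the 5 genes varied among libraries of the same group was described by the deviation of each library from its group mean on the log2(FPKM + 0.1) scale, over the 6 muscle and the 6 fat libraries apart. In muscle FBXO32 and RETREG1 had the highest Pearson's r, 0.91, and between 0.865 and 0.999 when a library was left out. INSR and IRS2 had an r of 0.62 (0.39 to 0.771). IRS2 and GABARAPL1 went in opposite directions, with r of -0.74 (-0.966 to -0.584). The points share the library and its scaling, and 6 libraries with 2 means removed leave few free values.

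LIMF 2 decided other relations. GABARAPL1 and RETREG1 had an r of 0.68 in muscle and of -0.69 without LIMF 2, and FBXO32 and GABARAPL1 had 0.36 and -0.71. LIMF 2 was the highest LIMF library for FBXO32, GABARAPL1 and RETREG1, and LIMF 1 was the highest for INSR and IRS2, so the 5 genes did not rank the LIMF libraries alike. In fat all 10 pairs had a positive r, from 0.039 for INSR and IRS2 to 0.84 for FBXO32 and GABARAPL1. For 3 of these pairs r was negative without 1 library: INSR and IRS2 had -0.468 without HBF 1, and without HBF 2 IRS2 had -0.647 with FBXO32 and -0.132 with GABARAPL1. LBF 2 and HBF 2 were the highest libraries of their groups for FBXO32, GABARAPL1 and RETREG1.

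**Figure D5:**
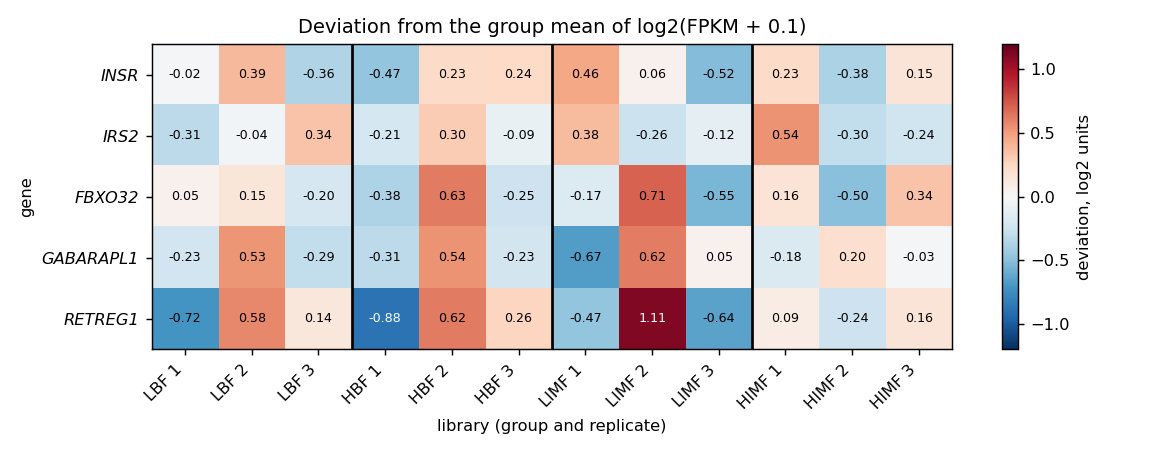
Deviation of each library from its group mean for the 5 genes, in log2(FPKM + 0.1), for the 12 libraries. FBXO32 and RETREG1 deviate together in muscle (r of 0.91), and LIMF 2 is the highest LIMF library for FBXO32, GABARAPL1 and RETREG1.

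Genes whose deviations over the 6 muscle libraries were most like those of a member were sought among 8252 genes with a symbol and a mean above 1 FPKM in muscle. For INSR they were HS2ST1, BCL9 and ABCB10, each with an r of 0.996 or more, and for IRS2 they were ZNF24, ZNF280B and PPP1R15A, with r of 0.997, 0.994 and 0.986. For FBXO32 they were RELL1, MON1B and SLC30A6, for GABARAPL1 KMO, PLXNA2 and NUTF2, and for RETREG1 MINDY3, PPP1CC and KPNA4, all with r of 0.994 or more. With 6 libraries such values are common: an r above 0.9 was found with 48 genes for IRS2, 154 for INSR, 263 for GABARAPL1, 272 for FBXO32 and 431 for RETREG1. By this measure RETREG1 stood at rank 242 for FBXO32, and FBXO32 at rank 379 for RETREG1, with the other pairs of members further down. In HIMF against LIMF these genes differed in sign and size. PPP1R15A had a log2 fold change of -1.31, ZNF280B of -0.91, BCL9 of -0.61 and ABCB10 of -0.55, with the sign of their member, while KMO had 1.14 where GABARAPL1 had -1.55, and MINDY3 had 0.16 where RETREG1 had -2.59.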

How the data were processed

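RNA-Seq of back subcutaneous fat and LD muscle was analysed in 12 libraries, 3 per group. Per the labels and the study's methods, the authors mapped reads with HISAT2, estimated levels with Cufflinks (version 2.2.1) and tested genes with DESeq2 (version 1.25.9). That test was of these same libraries, but the values that went into it were not used here. The deposited table holds FPKM values, 31910 rows for 31903 gene identifiers. Rows that repeat an identifier were summed, which left 7 fewer rows. Of the identifiers, 9167 were at 0 in every library, and 15027 matched a symbol. FPKM are not counts, so depth and counting error are unknown and a count test does not apply.

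Values were tested as log2(FPKM + 0.1) with limma (version 3.58.1, R version 4.3.3; empirical Bayes with trend, two-sided) after genes whose mean was 0.05 FPKM or less in the compared libraries had been left out, with Benjamini-Hochberg adjustment over all genes tested. A gene was called where the adjusted p was under 0.01 and the log2 fold change was 1 or more in size. Fold changes on this scale understate those of low genes. On simulated data, 200 genes were shifted by 2 log2 units: 66 were called in the muscle comparison (14292 genes), 95 in the fat comparison (16239) and 170 between the tissues (15965). Of the unshifted genes, 2 were called in muscle, 0 in fat and 0 between the tissues.

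The 5 members and the lists (insulin signal, FoxO factors and linked genes, ATG8 and core autophagy, ER-phagy, and adipocyte, skeletal muscle, slow and fast fibre, and immune and endothelial markers) were chosen with earlier results of these data known. Besides the members and 11 relatives and partners, the genes named were in each pathway list the 3 with the smallest unadjusted p in muscle and the 2 in fat, and for likeness the 3 with the highest r. The 10 matched adipocyte markers were named after their values were seen. Alternatives were other pseudocounts, filters, scalings and limits, a replicate block, a fit without trend, 1 fit of all libraries, single fat levels, leaving out each library and, chosen after seeing the data, the code that a fat and a muscle library share as a block. The replicates came from separate animals per the study's methods. Positions and symbols were taken from RefSeq tables of Sscrofa11.1, and primers from the study's primer list. Promoter motifs were not analysed here.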

Additional observations from a re-analysis of the deposited data

How the results depend on the processing

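Of 695 values of the 5 genes and the named list genes under the alternatives tried, 672 kept their sign and their side of the limits, 13 changed sign, 3 newly passed and 7 no longer passed. All 75 values of the 5 genes in HIMF against LIMF kept both. Between the tissues, INSR changed sign to 0.30 with median-of-ratios scaling, 0.29 with quantile normalization and 0.085 between the low groups, and passed at -1.53 between the high groups. RETREG1 passed at 1.88 and 1.28 with these scalings and was -0.14 between the high groups, and IGF1R was 0.0067 with quantile normalization. Leaving out 1 library moved the fat values of GABARAPL1 from -0.31 to 0.22, INSR from -0.38 to 0.040 and IRS2 from -0.18 to 0.15, and TEX264 in muscle from -0.57 to 0.039. The causes were not tested. The number of called genes ranged from 0 to 2 in fat, from 0 to 5 in muscle (5 without LIMF 1) and from 8833 to 9008 between the tissues when a library was left out. With all 12 libraries in 1 fit, 1 gene was called in muscle. Between the tissues 5864 genes were called with a pseudocount of 1, against 9009.

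Replicate numbers were shared by the groups. In fat, same-numbered libraries deviated with r of 0.068, 0.127 and 0.007 over genes, and in muscle with -0.073, 0.045 and -0.053, so the numbers were not taken as pairs. With the replicate number as a block, the adjusted p of RETREG1 in fat was 0.247 and that of FBXO32 0.310, the 5 genes in muscle had 0.538 to 0.692, 0 genes were called in either tissue and 9000 between them, and no call of the 5 genes changed. With the library code shared by a fat and a muscle library as a block, an alternative chosen after seeing the data, 8990 genes were called between the tissues and no call of the 5 genes changed either. The difference between the high-low comparisons then had an adjusted p from 0.330 for GABARAPL1 to 0.569 for FBXO32 in limma. The 3 libraries a group and FPKM without read counts limit the precision of each value.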

Other observations

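Libraries of LBF and LIMF that carry the same number deviated from their group means in the same direction over genes, with r of 0.126, 0.244 and 0.056 for numbers 1, 2 and 3, and each LBF library had its highest r with the LIMF library of its own number. For HBF and HIMF the values were -0.047, -0.054 and -0.038, and the highest r of HBF 1, 2 and 3 was with HIMF 2, 3 and 1, at 0.110, 0.099 and 0.092. LBF 2 and LIMF 2 were each the highest library of their group for GABARAPL1, RETREG1 and FBXO32, with 126 and 38.6 FPKM, 35.8 and 183 FPKM, and 10.2 and 287 FPKM. The deposited codes of same-numbered libraries share a number. The trait summaries of the study differ between LBF and LIMF and between HBF and HIMF, so not every such pair of libraries can come from the same pig, and which do is not given in the sources used here.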
